A study of Homo sapiens with 6 samples.

Results

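The MYC, MAX and MXD network is the family of basic helix-loop-helix leucine zipper proteins that pair with MAX or with its relative MLX. Its members were chosen by gene symbol from the deposited table, and all 10 symbols (MYC, MAX, MXD1, MXI1, MXD3, MXD4, MNT, MGA, MLX and MLXIP) were found among 60504 genes. Expression came from RNA-seq of WM164, a human melanoma cell line with the BRAFV600E mutation. EV libraries came from cells with an empty expression vector and HDAC8 libraries from cells with an HDAC8 expression vector, with 3 libraries in each group. Both groups share the line, its BRAF mutation and, by the methods of the study, transfection with a plasmid followed by hygromycin selection. Whether each group is 1 clone or a pool of cells is not given in the sources used here. Nothing in the labels says that the libraries of a group came from separate cultures. The study's methods leave RNA-seq out of the assays that were repeated independently. The p-values therefore measure the spread between these libraries, which may be technical.

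MYC binds DNA as a pair with MAX, most often at the E-box CACGTG, and raises transcription of genes for ribosome production, metabolism and the cell cycle. MXD1, MXI1, MXD3, MXD4 and MNT also pair with MAX, bind the same sites and bring the SIN3 corepressor with its histone deacetylases, so the network is often described as a balance between MYC and its antagonists. MGA pairs with MAX as well, carries a T-box in addition, and is the scaffold of a Polycomb complex named PRC1.6. MLX pairs with MLXIP, also called MondoA, which responds to glucose-derived metabolites, and MLX can also pair with MXD1, MXD4 and MNT. In melanoma, BRAF and MAPK signaling acts on the stability of the MYC protein, which RNA counts do not measure.

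Of the 10 members, MXD4 was higher and MGA lower in the libraries labelled HDAC8, and the other 8 did not pass the test. MXD4, a MAX-dependent repressor, was 1.74-fold higher (95% interval 1.19 to 2.54, n = 3 against 3), and MGA was at 0.549-fold of its EV level (0.450 to 0.671). Calls required a DESeq2 Wald test with a Benjamini-Hochberg adjusted p below 0.05 and an absolute log2 fold change of 0.58 or more. Over all genes with an adjusted p, 5.57% were called higher and 5.44% lower, so 1 of 10 members in each direction is near the background. The median log2 fold change was 0.12 over the members and -0.0031 over all 21021 genes with an adjusted p. All 10 members passed the minimum total count of 10 and had an adjusted p. For 2 of the 10 (MXD4 and MGA) the libraries of the groups did not overlap, against 24.0% of all genes tested. In a bulk library, a change in the number of cells of a type and a change in RNA per cell cannot be told apart.

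Total counts ran from 34741083 to 42041462 per library, and the members together took 0.0736% to 0.0814% of them. HDAC8 itself, the gene carried by the vector, had normalized counts of 383.8, 404.4 and 478.8 in EV libraries and of 484.8, 445.5 and 473.7 in libraries labelled HDAC8. The corresponding log2 fold change, 0.15, had an SE of 0.28 (DESeq2 adjusted p = 0.856), so the vector gene was not separated from its EV level in these counts, and the groups are given here by their labels. The study probed HDAC8 protein by immunoblot in cells given either vector, and RNA counts do not measure protein. HDAC8 1 stood apart by GC content. Its median log2 deviation from the mean of all libraries ran from -0.46 in the bin of genes with the lowest transcript GC content to 0.45 in the bin with the highest, whereas the corresponding values of the other 5 libraries lay between -0.26 and 0.21. Mitochondrially encoded genes took 9.66% to 12.8% of counts in EV libraries and 4.46% to 7.94% in libraries labelled HDAC8. Each call among the members is therefore given also without HDAC8 1 and after normalization within 20 bins of GC content, the latter chosen after the data had been seen.

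**Figure D1:**
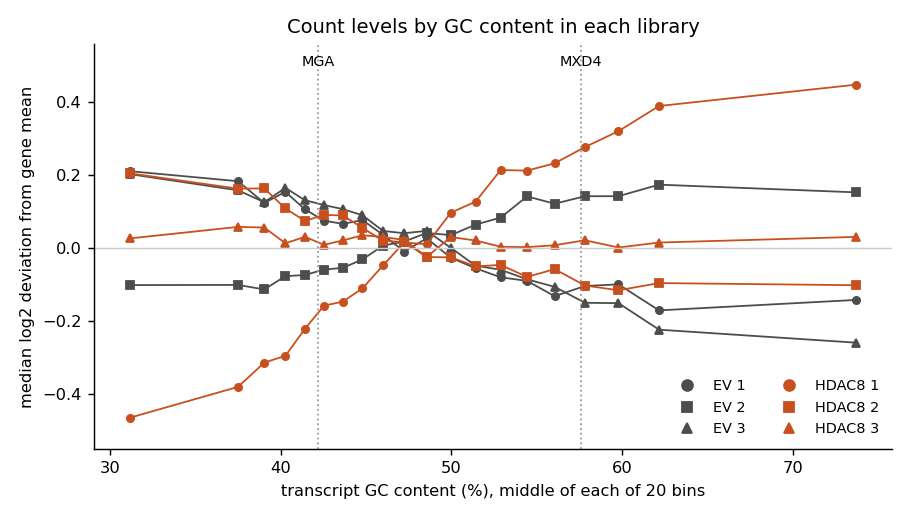
Median log2 deviation of genes in each library from their mean over all 6 libraries (vertical axis) in 20 bins of transcript GC content (horizontal axis, percent, at the middle of each bin), with 1 line per library and dotted lines at the GC content of MGA (42.2%) and MXD4 (57.6%). HDAC8 1 goes from -0.46 in the lowest bin to 0.45 in the highest, and EV 3, the next steepest, goes from 0.20 to -0.26.

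The melanocytic markers MITF and SOX10 were present in all libraries, with MITF at 17338.8 ± 938.5 normalized counts in EV and 15109.6 ± 3411.6 in HDAC8 (SD, n = 3 each). Of 7 melanocytic markers, 4 (PMEL, MLANA, TYR and DCT) were called lower. Among markers of other cell types, LUM (fibroblasts) had mean normalized counts of 2462.1 in EV and 1629.4 in HDAC8. CD68 of the immune list had 2751.4 and 5219.4. DCN (fibroblasts), KRT1 (keratinocytes), CDH5 (endothelium) and MS4A1 (B cells) were at 0 in all libraries, and PTPRC, the general leukocyte marker, had 3 counts in HDAC8 1 and 0 elsewhere. Of 6 fibroblast markers, 1 (PDGFRA) was called higher, though not with edgeR, limma-voom or replicate numbers as a block. PDGFRA was also not called without EV 1, EV 2, EV 3, HDAC8 1 or HDAC8 3. LUM was called lower without HDAC8 2 (log2 fold change -0.85, DESeq2 adjusted p = 0.00421). Summed normalized counts of the 6 were 2497.3 to 2894.1 in EV and 1463.0 to 2423.1 in HDAC8, most of them LUM. Of 5 immune markers, 2 had an adjusted p, and both were called higher (CD68, which non-immune cells also express, and CD3E). CD3E had 0 counts in each EV library and 92, 89 and 46 in HDAC8 (log2 fold change 8.66, DESeq2 adjusted p = 1.1e-06). Summed normalized counts of the 5 were 2300.6 to 3302.4 in EV and 4272.8 to 6164.6 in HDAC8, most of them CD68. Over all genes with an adjusted p, 5.57% were called higher and 5.44% lower. Summed keratinocyte markers (155.0 to 280.0 against 165.5 to 176.2) and endothelial markers (97.5 to 202.9 against 114.3 to 218.0) overlapped between the groups, and 0 of them were called, but KRT5 was called lower without HDAC8 1. The part of the immune and fibroblast markers in the results was not tested.

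The 2 called members are shown with promoter sequence because the network can act on E-boxes in the promoters of its own genes. Both come from the RefSeq promoter table (GRCh38.p14), which holds 300 bases around a gene start, and the 250 bases before the start are printed 5′ to 3′ on the strand of the gene. Capitals mark the E-box CACGTG in MXD4 (chr4:2262110-2262359, minus strand), whose first base lies 238 bases before the start. In MGA (chr15:41660155-41660404, plus strand, at the second of its 3 listed starts) capitals mark CGCGTG, the reverse complement of the variant E-box CACGCG, 21 bases before the start.
MXD4: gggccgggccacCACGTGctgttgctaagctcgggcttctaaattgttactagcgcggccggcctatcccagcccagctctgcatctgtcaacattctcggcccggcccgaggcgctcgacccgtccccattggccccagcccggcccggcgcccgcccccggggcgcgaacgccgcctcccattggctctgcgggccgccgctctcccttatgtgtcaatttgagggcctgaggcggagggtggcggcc
MGA: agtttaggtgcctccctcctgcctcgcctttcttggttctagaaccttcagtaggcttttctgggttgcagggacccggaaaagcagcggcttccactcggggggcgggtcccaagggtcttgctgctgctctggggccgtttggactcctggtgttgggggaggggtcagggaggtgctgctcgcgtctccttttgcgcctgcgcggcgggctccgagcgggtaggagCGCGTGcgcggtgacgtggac
The other starts listed for MGA held neither motif.

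Searched on both strands, CACGTG was found in 3 of the 14 promoters listed for 9 members (21.4%), those of MXD4, MNT and MLX, against 7.3% of all 35116 promoters of the same length. CACGCG was found in 3 of the 14 as well, 1 each of MXI1, MXD3 and MGA, against 11.4% of all promoters. The motifs do not overlap each other at these places. A match describes the letters of the window and does not show that a factor binds there. MXD4 was called higher and holds CACGTG, whereas MNT and MLX hold it and were not called. MYC is named only, without a promoter sequence.

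**Figure D2:**
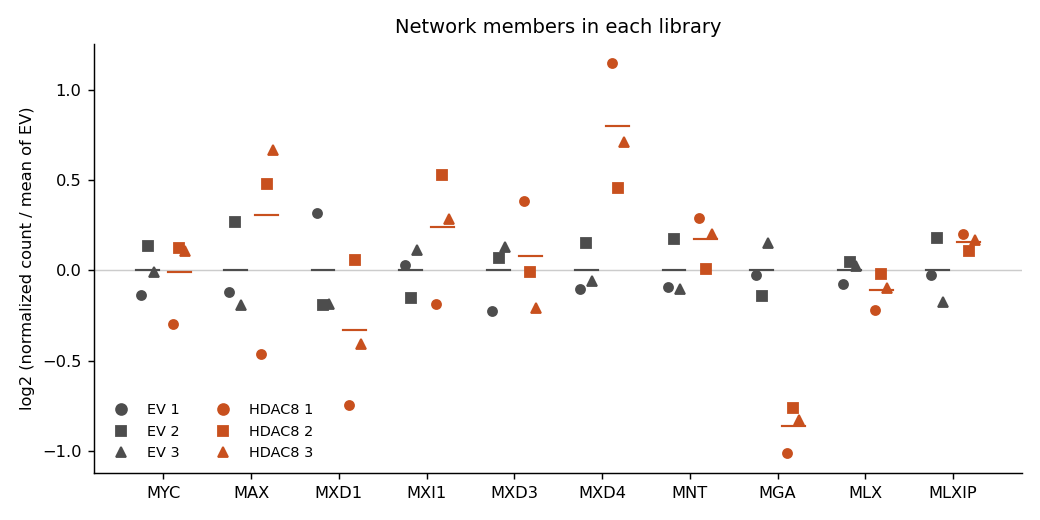
Normalized counts of the 10 members (horizontal axis) in each library, as log2 of the ratio to the EV mean of that gene (vertical axis), with a point per library, grey for EV and orange for HDAC8, and short lines at the log2 of the group means. All HDAC8 points of MGA lie below and all those of MXD4 above the EV points (group lines at -0.86 and 0.80), and the groups overlap for the other 8 members.

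MYC, the activating arm of the network, had normalized counts of 7380.1, 8908.8 and 8050.5 in EV libraries and of 6616.6, 8831.2 and 8742.1 in libraries labelled HDAC8. The lowest of the 6 values was that of HDAC8 1, and the groups overlapped. Group means were 8113.1 ± 766.3 and 8063.3 ± 1253.7 (SD, n = 3 each), for a log2 fold change of -0.009 (SE 0.16, 95% interval -0.31 to 0.30, DESeq2 adjusted p = 0.987). On the linear scale the interval ran from 0.805-fold to 1.23-fold, so changes of MYC mRNA outside that range lie outside the interval at this depth. Of 14440 genes with an adjusted p and a mean normalized count of at least 50, 98.6% had a log2 fold change larger in size than that of MYC.

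MAX, the partner that MYC, the MXD proteins, MNT and MGA share, varied most in the libraries labelled HDAC8. Its normalized counts were 1113.6, 1453.2 and 1059.0 in EV and 877.3, 1683.7 and 1916.6 in HDAC8. HDAC8 1 held the lowest value of the 6 libraries and HDAC8 2 and HDAC8 3 the highest ones. The log2 fold change was 0.30 (SE 0.27, 95% interval -0.23 to 0.84, DESeq2 adjusted p = 0.593). Without HDAC8 1 it was 0.57 (DESeq2 adjusted p = 0.0369), just under the fold change minimum. Without HDAC8 3 it was 0.085 (0.951), and without HDAC8 2 and without EV 3 it was 0.21 (0.775 and 0.858, all DESeq2 adjusted p), so the value depended on which library was left out. MAX (chr14:65006174-65102695, minus strand, GENCODE 44) overlaps exons of FNTB and CHURC1-FNTB on the opposite strand, and reads of overlapping genes are uncertain since the counting is not stated to use strand. The expected count of MAX was whole in every library.

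The 4 MXD genes, whose proteins replace MYC on MAX and recruit SIN3, did not move together. MXD4 is a member often linked to cells leaving the cell cycle. Its normalized counts were 415.2, 495.9 and 428.5 in EV and 988.5, 612.4 and 730.7 in HDAC8, so every HDAC8 library lay above every EV library and HDAC8 1 lay highest. Means were 446.6 ± 43.3 and 777.2 ± 192.3 (SD, n = 3 each), with a log2 fold change of 0.80 (SE 0.28, 95% interval 0.25 to 1.35) and a DESeq2 adjusted p of 0.0351. Of the 14440 genes above, 8.6% had a higher log2 fold change than MXD4.

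The MXD4 call was close to the threshold. It was lost with edgeR (adjusted p = 0.0516), with limma-voom (adjusted p = 0.0526) and in the fit without HDAC8 1, where the log2 fold change was 0.59 (DESeq2 adjusted p = 0.155). It was also lost without EV 1 (adjusted p = 0.164), EV 2 (0.0635), EV 3 (0.150) or HDAC8 3 (0.100, all DESeq2), with log2 fold changes from 0.75 to 0.88. It was held without HDAC8 2 (DESeq2 adjusted p = 0.0157). After normalization within GC bins the counts were 456.9, 460.1 and 486.8 in EV and 835.3, 673.3 and 737.1 in HDAC8, closer together within each group, and the log2 fold change was 0.68 (DESeq2 adjusted p = 0.0229). The direction was the same in all 17 alternatives. The gene lies at chr4:2247432-2262109 on the minus strand and has a transcript GC content of 57.6%.

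MXI1, also called MXD2, was the MXD gene with the most counts. It had 2481.0, 2191.9 and 2629.3 normalized counts in EV and 2141.1, 3515.9 and 2967.4 in HDAC8. HDAC8 1 was again below both other libraries of its group and below every EV library. The log2 fold change was 0.24 (SE 0.20, 95% interval -0.15 to 0.63, DESeq2 adjusted p = 0.544), and without HDAC8 1 it was 0.41 (DESeq2 adjusted p = 0.0523). Without HDAC8 2 it was 0.074 and without EV 2 it was 0.17 (DESeq2 adjusted p = 0.898 and 0.788). The gene lies at chr10:110207605-110287365 on the plus strand.

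MXD1, an antagonist often induced during differentiation, had 498.1, 349.3 and 350.7 normalized counts in EV and 238.6, 415.8 and 300.6 in HDAC8. EV 1 was the highest and HDAC8 1 the lowest library, and the groups overlapped. The log2 fold change of -0.33 (SE 0.35) had a 95% interval of -1.02 to 0.36 (DESeq2 adjusted p = 0.679), an interval that includes both a decrease and a small increase. The fold change was -0.14 on the log2 scale without EV 1, -0.16 without HDAC8 1 and -0.56 without HDAC8 2. MXD1 (chr2:69897688-69942945, plus strand) shares 237 exonic bases with SNRNP27 on the same strand.

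MXD3, a member linked to S phase, had 286.3, 351.2 and 365.5 normalized counts in EV and 436.9, 332.8 and 289.7 in HDAC8. Here HDAC8 1 was the highest library and the others overlapped. The log2 fold change was 0.08 (SE 0.33, 95% interval -0.58 to 0.74, DESeq2 adjusted p = 0.947), and it was negative without HDAC8 1 (-0.11), without EV 1 (-0.022) and after GC normalization (-0.12). MXD3 (chr5:177301461-177312757, minus strand) shares 926 exonic bases with RAB24 on the same strand and 1148 with PRELID1 on the opposite strand. Its expected count was not whole in 5 libraries, as happens when reads are divided between genes, and the same held for MLX and MNT. RAB24 had 944.0 normalized counts in HDAC8 1 and 417.3 to 495.0 in the other libraries. PRELID1 had 2576.4 in HDAC8 1 and 1773.2 to 2649.6 in the others. Whether shared reads moved the MXD3 values was not tested.

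**Figure D3:**
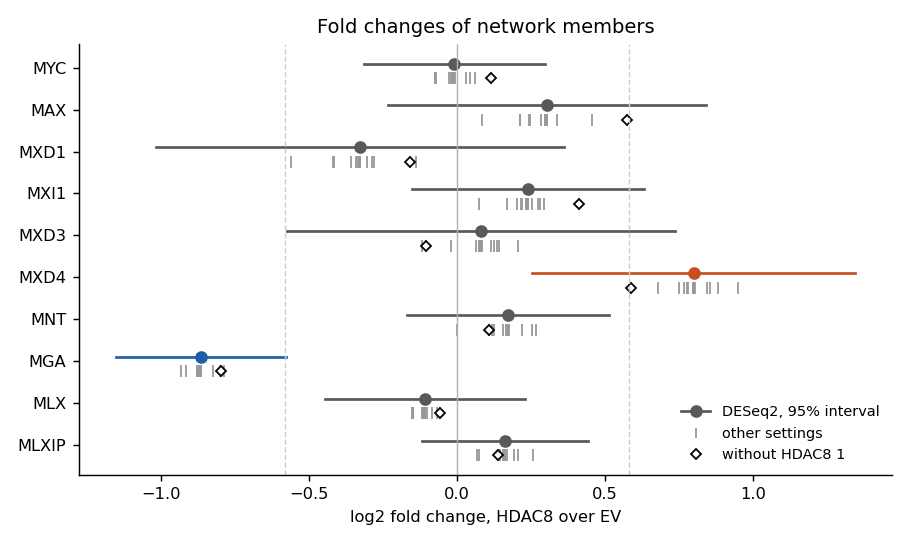
Log2 fold change of HDAC8 over EV (horizontal axis) for the 10 members, with dots and bars for the DESeq2 value and its 95% interval, ticks for the other alternatives, diamonds for the fit without HDAC8 1 and dashed lines at the fold change minimum of 0.58 in each direction. The interval of MGA (-1.15 to -0.58, blue) and that of MXD4 (0.25 to 1.35, orange) leave out 0, and those of the other 8 members include it.

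MNT and MGA are the large members of the repressive arm. MNT is present in most cells and opposes MYC also in dividing ones. It had 1990.2, 2398.3 and 1979.1 normalized counts in EV and 2593.5, 2133.3 and 2445.8 in HDAC8, with a log2 fold change of 0.17 (SE 0.17, 95% interval -0.17 to 0.51, DESeq2 adjusted p = 0.652). HDAC8 2 lay within the EV range, so the groups overlapped. The log2 fold change was 0.12 without EV 3, 0.11 without HDAC8 1, 0.27 without EV 2 and 0.0 after GC normalization. The gene lies at chr17:2384073-2401104 on the minus strand.

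MGA showed the clearest difference in the network. Its normalized counts were 7468.1, 6906.4 and 8443.5 in EV and 3767.5, 4492.9 and 4275.2 in HDAC8, so the lowest EV library lay well above the highest HDAC8 library. Means were 7606.0 ± 777.8 and 4178.6 ± 372.3 (SD, n = 3 each), and the log2 fold change was -0.86 (SE 0.15, 95% interval -1.15 to -0.58, DESeq2 adjusted p = 2.06e-07). Of the 14440 genes above, 7.2% had a lower log2 fold change.

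MGA was called lower in 16 of the 17 alternatives, with log2 fold changes from -0.93 to -0.79 in all 17. The exception was the test against the fold change minimum itself (DESeq2 adjusted p = 0.747). MGA transcripts have a GC content of 42.2%, and in the GC bin that holds it the median log2 deviation of HDAC8 1 was -0.16. HDAC8 1 had the lowest value of MGA. Without HDAC8 1 the log2 fold change was -0.80. After normalization within GC bins the counts were 7251.4, 7359.3 and 7959.0 in EV and 4299.7, 4315.5 and 4346.6 in HDAC8, and the log2 fold change was again -0.80 (DESeq2 adjusted p = 1.42e-14). The gene lies at chr15:41621134-41773081 on the plus strand, and the 677 genes with a longest transcript of at least 10 kb, as MGA has, had a median log2 fold change of -0.0338.

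The MLX branch was not called. MLX, which takes the place of MAX for MondoA, had 1737.5, 1895.0 and 1863.9 normalized counts in EV and 1575.1, 1810.7 and 1712.9 in HDAC8 (log2 fold change -0.11, SE 0.17, 95% interval -0.45 to 0.23, DESeq2 adjusted p = 0.815). MLXIP had 6071.4, 7005.4 and 5488.1 in EV and 7119.4, 6663.1 and 6963.9 in HDAC8 (log2 fold change 0.16, SE 0.14, 95% interval -0.12 to 0.44, DESeq2 adjusted p = 0.586). For both genes 1 or more libraries lay within the range of the other group. TXNIP and ARRDC4, the arrestin-like genes that MondoA activates when glucose is high, had log2 fold changes of -0.23 (DESeq2 adjusted p = 0.390) and 0.081 (0.894). MLX (chr17:42567072-42573239, plus strand) overlaps PSMC3IP on the opposite strand, and MLXIP lies at chr12:122078756-122147344 on the plus strand.

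The relatives of the members that take the same places in other tissues were hardly counted. MYCN, the form of MYC known from neuroblastoma, had 5 counts in EV 2 and 0 in the other libraries. MYCL had 17, 42 and 27 counts in EV and 21, 24 and 0 in HDAC8, with a log2 fold change of -0.97 (DESeq2 adjusted p = 0.793). MLXIPL, the liver relative of MondoA also called ChREBP, had 0 in each EV library and 24, 0 and 12 counts in HDAC8, and DESeq2 gave it no adjusted p. All 3 were far below MYC and MLXIP in every library.

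Levels were compared between genes per kilobase of the union of exons in GENCODE 44. MYC was the highest of the 10, with 1328.06 ± 125.44 normalized counts per kb in EV (SD, n = 3), a level above that of 95.2% of protein-coding genes. MLXIP (446.23 ± 55.19), MLX (430.58 ± 19.59), MXI1 (412.07 ± 37.65) and MGA (378.9 ± 38.74) followed, each of them overlapping its neighbours among these 4 in its libraries, and MGA lay above MNT without overlap. MNT (243.95 ± 27.46) and MAX (193.16 ± 34.13) also overlapped each other. MXD3 (70.48 ± 8.9), MXD4 (64.97 ± 6.29) and MXD1 (62.88 ± 13.46) were the lowest, without separation among them. The order in EV was the same with the length of the longest transcript.

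In the libraries labelled HDAC8, MYC stayed first (1319.91 ± 205.22 normalized counts per kb) and MXD1 last (50.12 ± 14.16). MGA went from the fifth place to the seventh (208.16 ± 18.54), below the means of MNT (274.78 ± 27.0) and MAX (238.54 ± 87.16), though its libraries overlapped those of MAX. MXD4 (113.08 ± 27.98) took the place above MXD3 (74.46 ± 15.96), again with overlap. The level of MGA relative to MYC per kb was 0.308, 0.236 and 0.319 in EV and 0.173, 0.155 and 0.149 in HDAC8, with no overlap. These ratios rest on the same counts as the call of MGA.

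**Figure D4:**
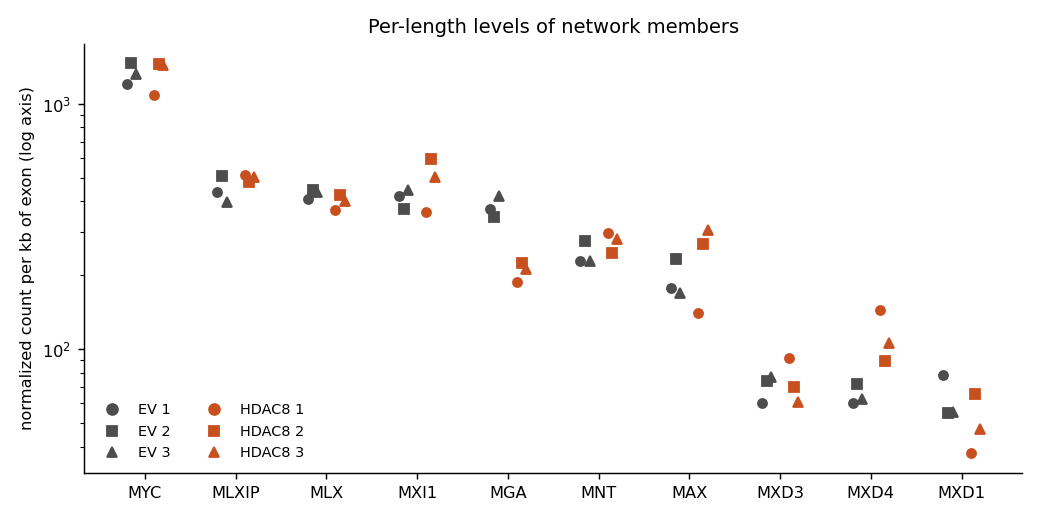
Normalized counts per kb of union exon (vertical axis, logarithmic) of the 10 members, ordered by their EV mean, with a point per library, grey for EV and orange for HDAC8. MYC lies highest, with means of 1328.06 in EV and 1319.91 in HDAC8, MGA goes from 378.9 to 208.16, and MXD1 lies lowest at 62.88 and 50.12.

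The 4 MXD genes together, per kb and relative to MYC, had ratios of 0.513, 0.392 and 0.485 in EV and of 0.587, 0.567 and 0.501 in HDAC8. The groups overlapped, with HDAC8 3 below EV 1. MXI1 made up 64.8% to 69.6% of the summed MXD level in EV and 57.0% to 72.6% in HDAC8. MXD4 made up 9.76%, 12.6% and 9.75% in EV and 22.6%, 10.9% and 14.8% in HDAC8, with HDAC8 2 inside the EV range. MAX relative to the sum of MYC, the MXD genes, MNT and MGA was 0.073, 0.088 and 0.065 in EV and 0.064, 0.098 and 0.116 in HDAC8, with the lowest and the highest ratio both in the HDAC8 group.

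Proteins that work with the network were described by lists written from general knowledge, of 153 genes in 11 lists. The lists were chosen with earlier results of these data known, so their shares are not independent of the data. Of the 151 list genes with an adjusted p, 16 were called higher (10.6%) and 5 lower (3.3%). Over all genes 5.57% were called higher and 5.44% lower, and the counts of each list stand against these shares as a description, not as a test. Of 14 cofactors that MYC recruits to activate transcription, 2 were called higher and 0 lower, with a median log2 fold change of 0.16. They were RUVBL1, a helicase-like ATPase (1131.9 ± 114.7 normalized counts in EV and 1757.2 ± 260.4 in HDAC8, log2 fold change 0.63, DESeq2 adjusted p = 0.017), and ACTL6A, an actin-like subunit of chromatin complexes (1104.1 ± 132.1 and 1753.9 ± 67.75, log2 fold change 0.67, DESeq2 adjusted p = 0.00592). RUVBL1 was not called without EV 2, EV 3 or HDAC8 1, and ACTL6A was not called without EV 1. The list therefore held 1 call without EV 1, EV 3 or HDAC8 1.

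Of 11 genes that set the stability of the MYC protein, 0 were called. HUWE1, a ubiquitin ligase of MYC and the most abundant of them, had 35072.6, 41224.8 and 39207.1 normalized counts in EV and 54892.8, 50979.1 and 53576.5 in HDAC8. Its groups did not overlap and its DESeq2 adjusted p was 0.00185, but its log2 fold change of 0.47 was under the fold change minimum. The SIN3 and NCOR corepressor list had 0 of 11 called (median log2 fold change -0.027), and its most abundant gene NCOR1 had a log2 fold change of 0.26 (DESeq2 adjusted p = 0.169). The list of proteins that join MGA in PRC1.6 also had 0 of 9 called (median -0.049). RYBP, the most abundant of that list, had 6805.6 ± 898.3 normalized counts in EV and 6824.6 ± 2024.1 in HDAC8.

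The genes that MYC is known to activate did not move one way. Of 80 such genes, 11 were called higher (13.8%) and 2 lower (2.5%), with a median log2 fold change of 0.105. Without HDAC8 1 the counts were 5 higher and 7 lower, and after GC normalization 9 higher and 3 lower. Calls over all genes were 1107 higher and 1378 lower without HDAC8 1, against 1170 and 1143 with it, and 1262 and 1292 after GC normalization.

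Ribosome biogenesis held most of the higher calls, with 7 of 34 genes higher (20.6%, against 5.57% of all genes), 0 lower (against 5.44%) and a median log2 fold change of 0.20. WDR74, which acts in maturation of the large subunit, went from 551.2 ± 120.6 to 1326.2 ± 359.1 normalized counts (log2 fold change 1.27, DESeq2 adjusted p = 6.88e-05). MYBBP1A, a nucleolar protein (0.95, adjusted p = 6.81e-07), RRP12, which acts in export of pre-ribosomes (0.89, adjusted p = 1.2e-05), and BOP1 of the PeBoW complex (0.88, adjusted p = 0.00221) followed. Without HDAC8 1, 3 genes were called higher (WDR74, MYBBP1A and RRP12, with log2 fold changes of 1.03, 0.80 and 0.77) and 1 lower (RRP9, -0.99), and after GC normalization 6 were called higher and 0 lower. BOP1 was not called without EV 3 or without HDAC8 1.

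In the metabolism and mitochondria list, 1 of 31 genes was called higher and 2 lower, with a median log2 fold change of -0.013. MTHFD2, a mitochondrial enzyme of folate metabolism, went from 13445.7 ± 659.6 to 7765.3 ± 883.9 normalized counts (log2 fold change -0.79, DESeq2 adjusted p = 3.3e-07). SLC7A5, a transporter of leucine and other large neutral amino acids, had 42854.0 ± 8834.4 and 25585.8 ± 1248.1 (-0.74, DESeq2 adjusted p = 2.66e-05) and was not called without EV 2. TFRC, the transferrin receptor, had 10004.3 ± 832.0 and 15089.2 ± 219.1 (0.59, DESeq2 adjusted p = 6.5e-05) and was not called without EV 1, EV 2 or HDAC8 1. Without HDAC8 1 the list had 0 higher and 4 lower, and without EV 1 it had 0 higher.

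Of 15 cell cycle genes that MYC activates, 3 were called higher and 0 lower, with a median log2 fold change of 0.055. MCM4 and MCM5, subunits of the replicative helicase, had log2 fold changes of 1.03 (DESeq2 adjusted p = 6.87e-10) and 0.82 (adjusted p = 5.11e-06), and both were called in every fit that left out a library. E2F2, a transcription factor of the G1 to S step, had 0.65 (DESeq2 adjusted p = 0.0352) and was called only without EV 2 among those fits. E2F2 was also not called with edgeR, with replicate numbers as a block or after GC normalization. Without HDAC8 1 the list had 2 higher (MCM4 and MCM5) and 2 lower (CDK4, -0.61, and CKS2, -0.89).

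Of 10 general proliferation markers, 2 were called higher and 0 lower (median log2 fold change 0.035), MCM2 at 0.73 (DESeq2 adjusted p = 0.00751) and AURKB, a mitotic kinase, at 0.61 (adjusted p = 0.00587). MKI67 had 37294.3 ± 5037.2 normalized counts in EV and 25558.0 ± 2174.4 in HDAC8, with a log2 fold change of -0.55 (DESeq2 adjusted p = 0.00149) that was under the fold change minimum. MCM2 was not called without EV 1, EV 3 or HDAC8 1, and AURKB was not called without EV 1, EV 3 or HDAC8 2. MCM2 was also not called with edgeR, nor AURKB after GC normalization. Without EV 1 or EV 3 the list held 0 higher calls, and without HDAC8 2 it held 1. MKI67 was called lower without EV 1 (-0.64, DESeq2 adjusted p = 0.00182) and without HDAC8 3 (-0.60, DESeq2 adjusted p = 0.00851).

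Of 13 genes that MYC is known to repress, 1 was called higher and 3 lower, with a median log2 fold change of -0.13. The lower ones were CDKN1B (p27), an inhibitor of cyclin-dependent kinases (2113.7 ± 238.6 and 1178.4 ± 240.8 normalized counts, log2 fold change -0.84, DESeq2 adjusted p = 0.00114), CDKN2B (p15), another such inhibitor (-0.79, adjusted p = 0.000653), and KLF6, a zinc finger factor (-0.71, adjusted p = 0.000604). CEBPD, a leucine zipper factor, was the higher one (151.1 ± 35.33 and 337.9 ± 58.04, log2 fold change 1.16, DESeq2 adjusted p = 0.027). CDKN1B and CDKN2B were called in every fit that left out a library, and KLF6 in all but that without HDAC8 1. CEBPD was not called without EV 1, EV 3, HDAC8 2 or HDAC8 3, nor after GC normalization.

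**Figure D5:**
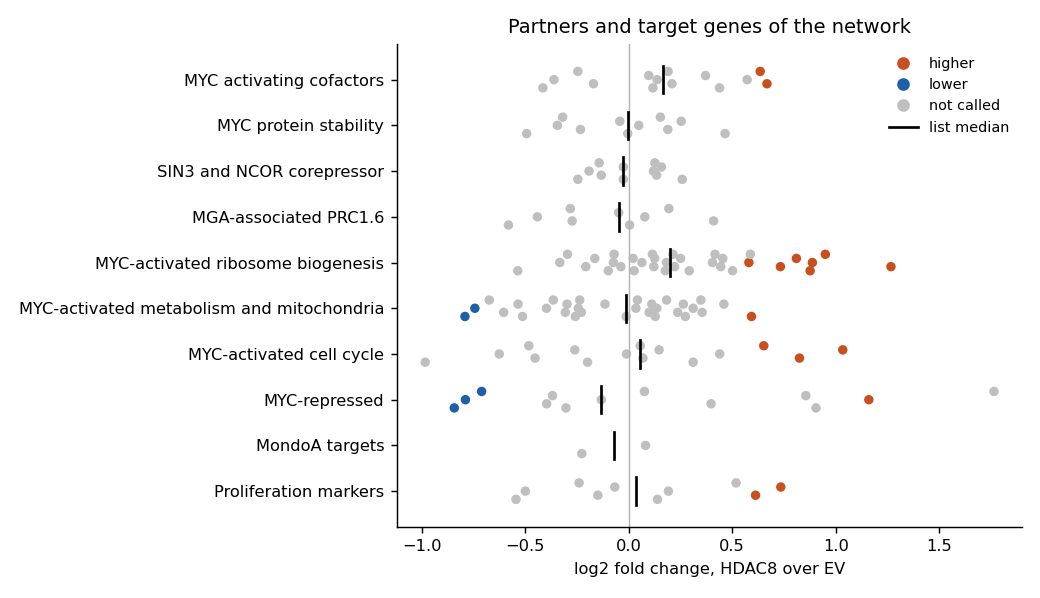
Log2 fold change of HDAC8 over EV (horizontal axis) of each gene in 10 of the 11 lists (vertical axis, without the network relatives), with a point per gene, orange for called higher, blue for called lower and grey for not called, and a vertical line at the median of each list. The median of the ribosome biogenesis list (34 genes) is 0.20 with 7 called higher, that of the MYC-repressed list (13 genes) is -0.13 with 3 called lower, and the corepressor and PRC1.6 lists hold 0 called genes.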

How the data were processed

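RNA-seq counts of 3 EV and 3 HDAC8 libraries of WM164 cells were analysed, grouped and numbered by the labels. The methods of the study state that the authors trimmed reads with Trimmomatic, aligned them with STAR and quantified genes with RSEM. The deposited unit is the expected count per gene, unscaled by the authors, in which a read that could come from several genes is divided between them. Genome build, annotation release and strand setting of the RNA-seq are not given in the sources used here. The labels and the methods name different kits for RNA extraction.

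Expected counts were rounded. DESeq2 1.42.0 (R 4.3.3, two-sided Wald test, default size factors of 0.918 to 1.17, group as the only term) was run on all 6 libraries, after removal of genes whose counts summed to under 10, which left 26162. Calls needed a Benjamini-Hochberg adjusted p below 0.05 over all genes and an absolute log2 fold change of 0.58 or more, and 5141 genes had no adjusted p. Errors are SD over libraries, and 95% intervals come from the DESeq2 standard error. The members and lists were chosen with earlier results of these data known. Named genes are all members, HDAC8, the network relatives, the MondoA targets and, of each other list, up to 4 called genes with the largest changes and a mean normalized count of at least 50, or the most abundant gene where 0 were called. RRP9, CDK4, CKS2, MKI67, RAB24 and PRELID1 fall outside that rule and were named after their values were seen. The named cell type markers and the other genes that overlap members also fall outside it. Lengths, GC content and positions come from GENCODE 44 (GRCh38), joined by Ensembl identifier (56558 of 60504 found), and all 190 list and marker genes were matched, 1 of them by its identifier. Promoters come from RefSeq.

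Alternatives were edgeR 4.0.16 and limma-voom 3.58.1 with TMM scaling, size factors from totals, upper quartiles or TMM, no low-count filter, a minimum of 10 counts per library, leaving out mitochondrially encoded genes, a replicate block, a test against the fold change minimum, each library left out in turn, and normalization within 20 GC bins. The fits were also run on simulated counts, in which the added changes were larger in size than those of MXD4 and MGA. That run does not bear on calls of smaller changes. No library was a copy of another of its group, since chi-square per degree of freedom within groups ran from 27.6 to 167.6.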

Additional observations from a re-analysis of the deposited data

How the results depend on the processing

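The number of members called higher, 1 as reported, was 0 with edgeR, with limma-voom, with the replicate block and when tested against the fold change minimum, and ran from 0 to 1 over the fits that left out a library, with 1 only without HDAC8 2. The number called lower, also 1, was 0 when tested against that minimum and 1 in every fit that left out a library. Over the lists, 16 genes were called higher and 5 lower. Both counts were 0 when tested against that minimum. Leaving out a library gave 8 to 17 higher (8 without EV 1, 9 without HDAC8 1, 10 without EV 3) and 6 to 9 lower (9 without HDAC8 1), and the other alternatives gave 12 to 17 higher. The cause of these shifts was not tested.

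The log2 fold change of MYC turned positive with total-count size factors (0.031), with GC bins (0.045) and without EV 2 (0.062) or HDAC8 1 (0.11), and ran from -0.075 to 0.11 over the fits that left out a library. That of MXD3 turned negative with GC bins (-0.12) and without EV 1 (-0.022) or HDAC8 1 (-0.11), and ran from -0.11 to 0.20 over those fits. Neither gene was called in any setting. No other member changed direction. Of 170 values of the members' log2 fold changes, 153 kept direction and side of the threshold.

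The labels give both groups the numbers 1 to 3, and the counts showed no pairing by these numbers. EV and HDAC8 libraries of the same number had deviations from their group means that correlated at -0.027, -0.066 and 0.040 over 14451 genes. With 3 libraries per group, these values cannot exclude that the numbers mark pairs. With the replicate block 1075 genes were called higher and 1078 lower, against 1170 and 1143 without it, and MXD4 was not called (DESeq2 adjusted p = 0.102). The test against the fold change minimum called 292 higher and 291 lower. Levels per kb of the longest transcript in place of the union of exons moved by more than 1 SD for every member but MXD1, in both groups, whereas scaling by total counts moved none by that much.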
